A study of Homo sapiens with 4 samples.

Results

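The circular RNAs (circRNAs) of Huh-7D12, an established human liver cancer line, were set against those of the liver cancer lines Hep3B, HepG2 and SK-Hep-1. All circRNAs whose deposited value reached 6 in any of the 4 lines were taken, with an empty value read as 0. This gave 777 circRNAs of the 8000 with a read in any line and of the 12473 listed. Of the 777, 414 reached the value of 6 in Huh-7D12, 323 in Hep3B, 224 in HepG2 and 325 in SK-Hep-1. The smallest maximum that entered was 6.23, shared by 32 circRNAs, and the largest that did not was 5.58, shared by 60. A value of 6 stands for 5 to 7 reads across the back-splice junction, depending on the line. The labels of the 4 samples name no treatment, and each line was sequenced as 1 library of total RNA without poly(A) selection. With 1 library per line there is no test and no SD. Folds carry exact 95% binomial intervals that cover counting error only, and differences between lines cannot be told apart from differences between these cultures or libraries.

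A circRNA forms when the spliceosome joins the end of an exon to the start of the same exon or of an exon upstream, which closes the RNA into a loop. The loop has no cap and no poly(A) tail, escapes exonucleases and tends to be stable. Reads that cross this back-splice junction tell it from the linear RNA of the same gene, its host. In a bulk library fewer cells with a circRNA and fewer copies in each cell cannot be told apart.

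The junctions of the circRNAs on which the results turn are printed first, because the junction is the only stretch that a loop does not share with its linear host RNA. Each line holds 15 bases of the end of the last exon in lower case and 15 bases of the start of the first exon in capitals, 5′ to 3′ on the RNA strand written as DNA, from GENCODE 29 transcripts on GRCh38. Exons are counted in the transcript that matched both ends. The first group stood far above the other lines in Huh-7D12.
circALB exon 14: ttaaaagcatctcagGGTAAAAAACTTGTT
circLPAR3 exon 2: tgatgactgtcttagGATGTTCACTTCTCC
circUNC13C exon 2: agatcttggctggagACACTACATGGAGTT
circAFF2 exon 3: ctccaaacaagtgaaACAAACAAAGGTGAT
circCNTLN exons 7 to 12: gctaatgattcaaaaGAAGGAACTGCAGGA
circNPLOC4 exons 3 to 13: tatctcatcatagacGTTGCAAAGGAGTTT
circRLF exons 2 to 5: gatgctattaaggagACCTTATTGCAATAT
circSUMF1 exons 2 to 5: aaaaccaagcaaacgTGCCTGAGAAGAAAA

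The second group holds abundant circRNAs of Huh-7D12, most of them present in all 4 lines.
circNFATC3 exons 2 to 3: catcctgttgtgaagATCTTGAGCCAGATG
circCAMSAP1 exons 2 to 3: ttctggatcaacaagATAACATCCCTGAGG
circFNDC3B exons 5 to 6: attcagacttgcaagGTGATTGAAGATAGT
circRBM14-RBM4/RBM4 exon 2: acacagagtttcaagGCTCTTGTCAGGATG
circHIPK3 exon 2: atctcggtactacagGTATGGCCTCACAAG
circZNF638 exons 11 to 21: attagaaaaagaaagCCAAAACTGGACAAG

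The last group held a smaller share of the circRNA reads in Huh-7D12 than in the other lines.
circGSE1 exon 2: cggaggagcccagagGCATGAGCCATGAGC
circRNF13 exons 3 to 9: ataaattcaagaaagGTGATTTTACAACGA

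Huh-7D12 gave the most back-splice reads and the most different circRNAs of the 4 lines. It had 13515 circRNA reads on 18581156 gene reads, where the other lines had 6235 to 12916 on 20938569 to 24409250. This is 727 (715 to 740) circRNA reads per 1000000 gene reads, against 529 in Hep3B, 370 in SK-Hep-1 and 272 in HepG2. The share of gene reads on the mitochondrial genome was also lowest in Huh-7D12, 17.4% against 29.2% to 47.4%, and it enters the denominator. Over nuclear genes alone Huh-7D12 had 881 circRNA reads per 1000000, Hep3B 747, SK-Hep-1 567 and HepG2 516. Over the genes that host a circRNA, the values were 2221 in Huh-7D12, 1921 in Hep3B, 1708 in SK-Hep-1 and 1293 in HepG2. The order of Huh-7D12 and Hep3B above the other lines held with each denominator, and the gap between Huh-7D12 and Hep3B narrowed.

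**Figure D1:**
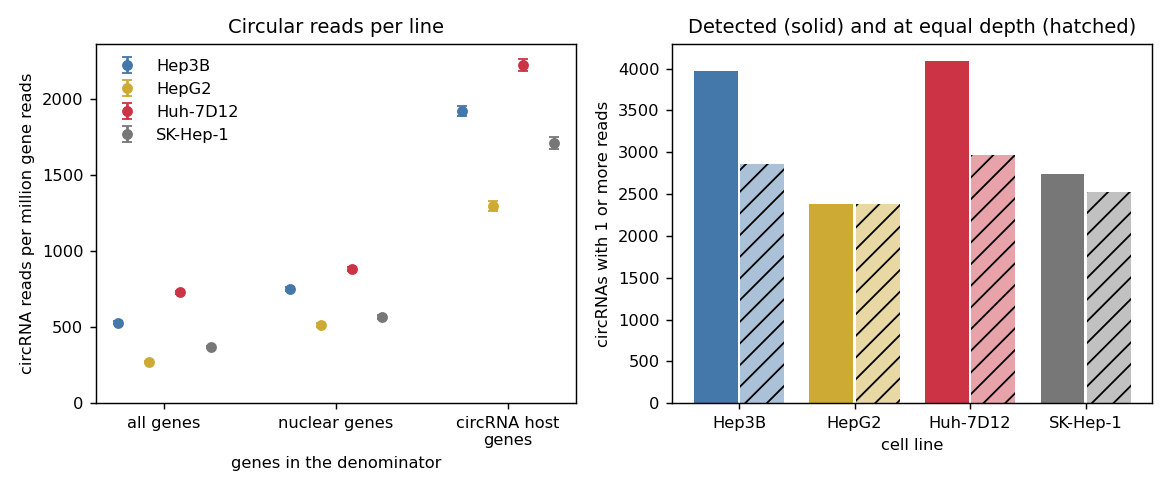
Left, circRNA reads per 1000000 gene reads in the 4 lines with all genes, nuclear genes or circRNA host genes in the denominator; bars are exact 95% intervals of counting error. Right, circRNAs with 1 or more reads as sequenced (solid) and expected at 6235 reads per line (hatched); Huh-7D12 has the highest value in every group.

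In what follows, a row of 4 values without names gives Hep3B first, then HepG2, then Huh-7D12 and last SK-Hep-1, and 3 values for the other lines keep that order. A read was found for 4089 circRNAs in Huh-7D12, 3966 in Hep3B, 2742 in SK-Hep-1 and 2383 in HepG2. Because these numbers follow the depth, each line was also brought to the 6235 circRNA reads of HepG2 by exact calculation. The expected numbers were then 2965 in Huh-7D12, 2860 in Hep3B, 2530.1 in SK-Hep-1 and 2383 in HepG2, so most of the surplus over HepG2 and SK-Hep-1 was no longer seen. The leading circRNAs of Huh-7D12 held the smallest shares of the reads, though Hep3B and SK-Hep-1 were close. In Huh-7D12 the leading circRNA held 1.13%, the leading 10 held 5.54% and the leading 100 held 20.6%, and 712 circRNAs were needed for 50% of the reads. Hep3B had 1.18%, 6.17% and 23.6% and needed 594, and SK-Hep-1 had 1.15%, 6.38% and 22.5% and needed 533. The intervals of the leading circRNA overlapped between these 3 lines. The numbers needed for 50% were not brought to equal depth. In HepG2, where the reads were the least even, the leading circRNA held 3.50%, the leading 10 held 11.3%, the leading 100 held 30.1%, and 363 were needed.

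Many circRNAs seen in Huh-7D12 were not seen elsewhere, but few of the abundant ones. Of the 4089, 1728 (42.3%) had no read in another line and 583 were found in all 4. The same held for 1508 of 3966 in Hep3B, 572 of 2383 in HepG2 and 1002 of 2742 in SK-Hep-1, which had no read in another line. These numbers were not brought to equal depth, and 978 of the 4089 rest on 1 read. Of the 414 with a value of 6 or more, 27 (6.52%) had no read elsewhere, 54 had reads in 1 other line, 98 in 2 and 235 in all 3. Among circRNAs of 6 or more, 10 of 323 had no read elsewhere in Hep3B, 8 of 224 in HepG2 and 46 of 325 in SK-Hep-1. Huh-7D12 was the only line at 6 or more for 183 of its 414. In the other direction, 131 of the 777 had no read in Huh-7D12, where 3 reads of its total correspond to a value of 3.25.

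The 15 most abundant circRNAs of Huh-7D12 came from hosts of varied roles. The leading one, circNFATC3 exons 2 to 3 (chr16:68121987-68126610, plus strand), had values of 166 in Huh-7D12, beside 135 in Hep3B, 304 in HepG2 and 53.8 in SK-Hep-1. NFATC3 encodes a transcription factor switched on by calcium signalling. HepG2 stood 1.83-fold (1.49 to 2.27) above Huh-7D12, while the interval against Hep3B included 1. A zinc finger gene gave the next, circZNF124 with a span of 3408 bases (chr1:247156406-247159813, minus strand), at 129 in Huh-7D12 and 43.6, 71.1 and 17.5 in the others. Its ends did not match the exon edges of a single transcript, and genes of its family are similar in sequence, so its assignment is uncertain. Huh-7D12 was highest here, 1.81-fold (1.30 to 2.57) above HepG2.

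circCAMSAP1 exons 2 to 3 (chr9:135881633-135883078, minus strand) followed. CAMSAP1 encodes a protein that binds the minus ends of microtubules. The values were 88.8 in Huh-7D12, beside 30.3 in Hep3B, 34.9 in HepG2 and 20.2 in SK-Hep-1. Huh-7D12 was 2.55-fold (1.61 to 4.16) above the nearest line, and all 3 intervals lay above 1. circFNDC3B exons 5 to 6 (chr3:172247533-172251541, plus strand), of a gene with fibronectin type III domains, had 73.0, 50.2, 81.2 and 13.5. There Huh-7D12 and Hep3B did not differ beyond counting error, with a ratio of 1.11 (0.802 to 1.54). circHIPK3 exon 2 (chr11:33286413-33287511, plus strand), of a nuclear protein kinase gene, had 44.5, 15.3, 55.2 and 44.4. It differed from HepG2 alone beyond counting error, by 3.60-fold (1.85 to 7.66).

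Some abundant circRNAs were uneven between the lines without reaching the 4-fold rule used further on. The loop of exon 2 shared by RBM4 and the read-through gene RBM14-RBM4 (chr11:66639700-66640123, plus strand) had 67 reads in Huh-7D12, 27 in Hep3B and 0 in HepG2 and SK-Hep-1. RBM4 encodes an RNA-binding regulator of splicing, and the deposited table gives this circRNA 2 hosts. Its values were 72.6 in Huh-7D12 and 24.0 in Hep3B, a ratio of 3.02 (1.90 to 4.91). circZNF638 exons 11 to 21 (chr2:71396141-71418639, plus strand), of a nuclear zinc finger protein, had 53.1 in Huh-7D12 and 8.01, 5.58 and 16.2 in the other lines. Huh-7D12 was 3.29-fold (1.72 to 6.79) above SK-Hep-1 and farther above the others. circGLIS3 exon 2 (chr9:4286038-4286523, minus strand), of a transcription factor gene, had 49.8 in Huh-7D12, 12.5 in Hep3B, 1.35 in SK-Hep-1 and 0 in HepG2. circABCD3 exons 2 to 10, of a peroxisomal membrane transporter gene, had 17.8, 50.2, 53.1 and 0, so that SK-Hep-1 was the line that stood apart. Over the 777, Huh-7D12 was the highest line for 291, SK-Hep-1 for 213, Hep3B for 161 and HepG2 for 112, and Huh-7D12 was the lowest line for 84.

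The 4 lines were compared on log2(value + 1.21). A circRNA that exceeded the next highest line by at least 2 on this scale, which is 4-fold, was called higher, and one that fell short of the next lowest line by as much was called lower. In Huh-7D12 50 of the 777 were higher (6.44%) and 3 lower (0.386%). Hep3B had 13 higher (1.67%) and 3 lower, HepG2 14 (1.8%) and 8 (1.03%), and SK-Hep-1 62 (7.98%) and 28 (3.6%). All 50 entered through Huh-7D12 alone, so the entry rule itself made them differ, and nothing is read from their number. The calls rest on few reads: 24 of the 50 had 10 or more reads in Huh-7D12 and 8 had 20 or more, and 27 of the 50 had no read in any other line. For 40 of the 50 the lower limit of the fold was above 1 against each other line, and over all 777 this held for 68. The 50 were chosen on the same reads, so these limits give the calls no support. Against a line with 0 reads, a fold is given to a floor of 3 reads and written as at least that fold, which can be below 4 for circRNAs called by the log2 rule.

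**Figure D2:**
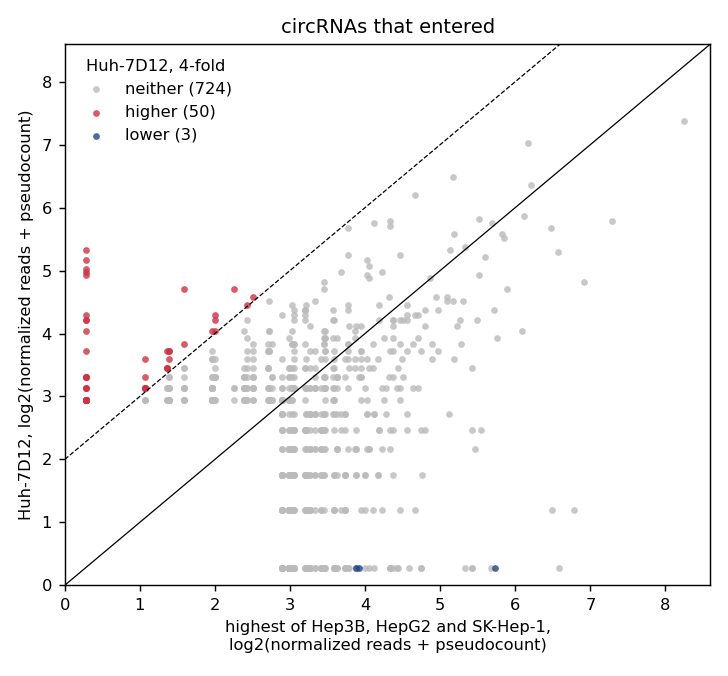
Each of the 777 circRNAs by its highest value in the other 3 lines and its value in Huh-7D12, both as log2(normalized back-splice reads + 1.21); the solid line is equality and the dashed line 4-fold. The 50 called higher lie above the dashed line, 27 of them at 0 reads in all other lines, and the 3 called lower lie at the bottom.

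A host that makes a liver protein gave the circRNA farthest above the other lines. circALB exon 14 (chr4:73420254-73420321, plus strand; ALB, ENSG00000163631) is a loop of 68 bases from the coding end and untranslated part of the serum albumin gene. It had 36 reads in Huh-7D12, a value of 39.0, and 0 in Hep3B, HepG2 and SK-Hep-1, which is at least 9.32-fold. The ALB gene itself went the other way, with values of 76825 in Huh-7D12, beside 265659 in Hep3B, 125272 in HepG2 and 0 in SK-Hep-1. All circRNAs of ALB together had 40 reads in Huh-7D12, or 0.564 (0.403 to 0.768) per 1000 gene reads. In Hep3B none was seen on 298342 gene reads, with an upper limit of 0.0124, and in HepG2 none on 89823, with an upper limit of 0.0411. A loop of 68 bases is shorter than the 100-bp reads, and whether the reads assigned to circALB exon 14 come from a loop was not tested.

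Receptor and vesicle genes gave 2 more. circLPAR3 exon 2 (chr1:84865385-84866138, minus strand; ENSG00000171517), of a receptor for lysophosphatidic acid, had 32 reads in Huh-7D12, a value of 34.7, and 0 elsewhere, at least 8.28-fold. Its host had values of 434 in Huh-7D12, beside 10.7 in Hep3B, 0 in HepG2 and 962 in SK-Hep-1. SK-Hep-1 thus had more LPAR3 gene reads and no circular read on 715 of them, with an upper limit of 5.17 per 1000, against 79.8 (53.8 to 114) in Huh-7D12. For the related gene LPAR1, circLPAR1 exons 2 to 3 had 66 reads in SK-Hep-1 against 1 in Huh-7D12, and none in Hep3B or HepG2. The LPAR1 gene was also low in Huh-7D12, at a log2 distance of -7.18 to the highest other line, so circRNA and gene went the same way there. circUNC13C exon 2 (chr15:54012648-54015886, plus strand; ENSG00000137766), of a gene for priming of synaptic vesicles, had 27 reads in Huh-7D12 and 0 elsewhere, at least 6.99-fold. UNC13C had gene values of 2310.5 in Huh-7D12 and 47.2, 4.18 and 0 in the other lines.

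A gene of a nuclear protein and a noncoding gene also gave circRNAs whose hosts were themselves near 0 elsewhere. circAFF2 exon 3 (chrX:148661908-148662768, plus strand; ENSG00000155966) had 17 reads in Huh-7D12 and 0 in the other lines, which is at least 4.4-fold. AFF2 encodes a nuclear protein of the AF4 family. Its gene value was 237 in Huh-7D12, against at most 0.890 in any other line. circLINC01608 exons 1 to 5, on chromosome 8, had 28 reads in Huh-7D12 and 0 elsewhere, at least 7.25-fold, and its host gene had 246 against 0. Exon 1 of the matched transcript has no intron before it, so how this loop was joined is uncertain.

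For other hosts the gene was present in every line and the circRNA was not. circCNTLN exons 7 to 12 (chr9:17298190-17342444, plus strand), of a centrosomal protein gene, had 16 reads in Huh-7D12 and 0 elsewhere, at least 4.14-fold. The host had values of 974 in Huh-7D12, beside 1589 in Hep3B, 268 in HepG2 and 388 in SK-Hep-1, and Hep3B had 8 reads of other CNTLN circRNAs. circNPLOC4 exons 3 to 13 (chr17:81572017-81622278, minus strand), of a cofactor of the VCP segregase, had 14 reads against 0, at least 3.62-fold, on a gene at 1617, 1841, 1812 and 1547. circRLF exons 2 to 5 (chr1:40189055-40202614, plus strand), of a zinc finger gene, had 11 against 0, at least 2.85-fold. Its gene values were 753, 1280.3, 1600 and 1041, highest in Huh-7D12 by less than 2-fold. circSUMF1 exons 2 to 5 (chr3:3777725-3789074, minus strand) had 23 reads in Huh-7D12, beside 2 in Hep3B, 1 in HepG2 and 0 in SK-Hep-1. SUMF1 encodes the enzyme that activates sulfatases. Huh-7D12 was 14-fold (3.46 to 122) above Hep3B, although the gene was highest in Hep3B, at 1114 against 399.

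Members called higher with reads in several lines included circSETBP1, circPMS1 and circEXOC6B. circSETBP1 exon 2 had 23 reads in Huh-7D12 and 4, 1 and 0 in the other lines, and was 6.99-fold (2.39 to 27.8) above Hep3B. circPMS1 exons 2 to 5, of a mismatch repair gene, had 5, 3, 21 and 2 reads and was 5.11-fold (1.87 to 17.3) above Hep3B. circEXOC6B exons 3 to 6, of the exocyst complex, had 3, 3, 19 and 2 and was 4.92-fold (1.45 to 26) above HepG2. At the low end circMLH3, circPTPRM exons 9 to 11, circRBPMS exons 2 to 5 and a circRNA on chromosome 21 without an assigned host had 8 reads each and none elsewhere, at least 2.07-fold.

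**Figure D3:**
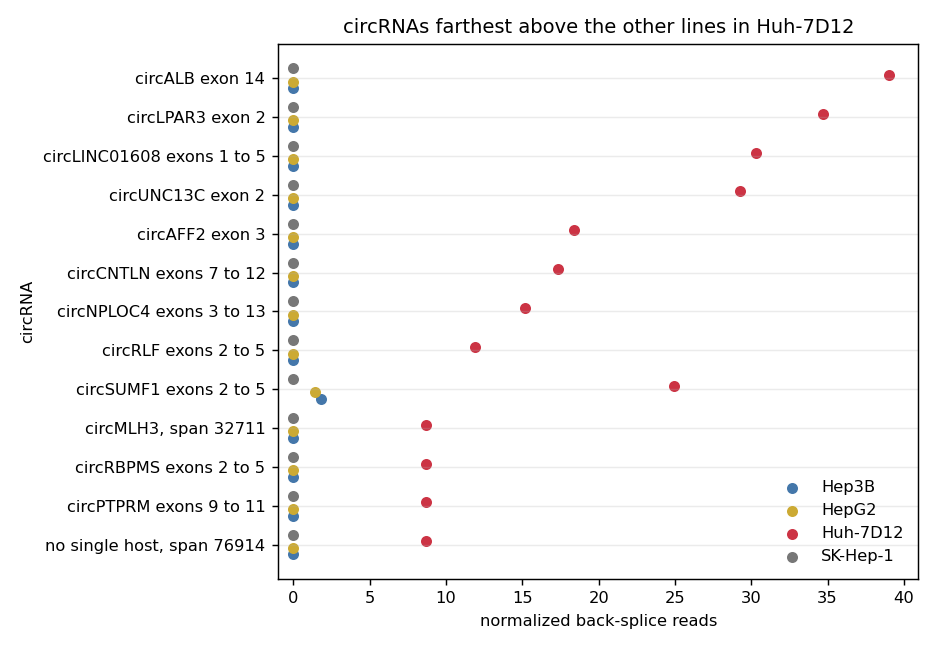
Deposited values (normalized back-splice reads, linear axis) in the 4 lines of 13 of the 15 circRNAs farthest above the other lines in Huh-7D12, ordered by the log2 distance. Of the 13, all but circSUMF1 exons 2 to 5 have 0 reads in Hep3B, HepG2 and SK-Hep-1.

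The level of the host gene was then set beside that of the circRNA. Of the 46 higher circRNAs with a single measured host, the gene also stood 4-fold above the other lines for 5 (10.9%) and 2-fold above for 8 (17.4%). Over all 734 circRNAs with such a host the numbers were 8 (1.09%) and 18 (2.45%). The gene was highest in Huh-7D12 for 28 of the 46 (60.9%) and for 188 of the 734 (25.6%). The median log2 distance of the gene to the highest other line was 0.18 for the 46 and -0.62 for the 734. This is not a like comparison, and nothing is concluded from the differences. The 46 were chosen through high values in Huh-7D12, while the 734 include them and circRNAs that entered through other lines alone. For 18 of the 46 hosts the gene was below another line, as for ALB, LPAR3, CNTLN and SUMF1. For 29 of the 46 hosts another line had reads of a different circRNA of that gene. Of the 24 whose circRNA was at 0 in all other lines, 13 had 20 or more gene reads in each of them.

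**Figure D4:**
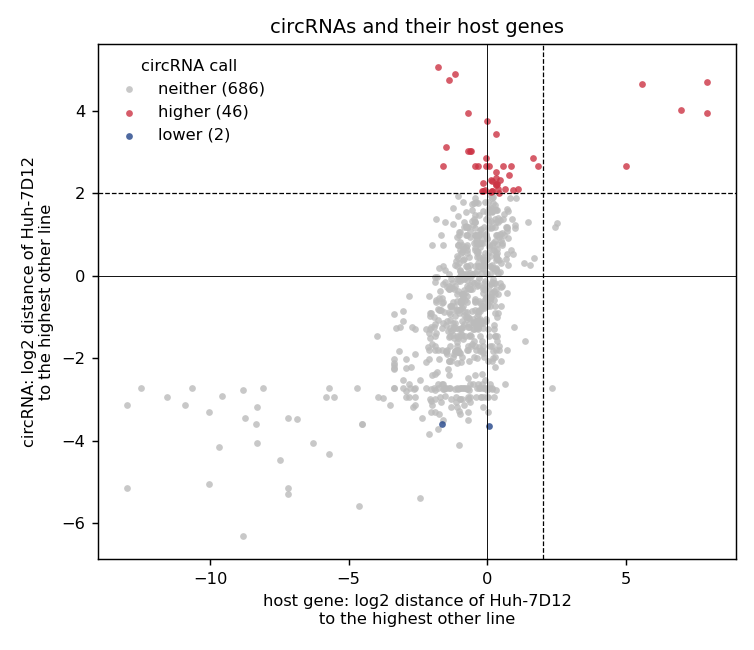
The log2 distance of Huh-7D12 to the highest other line for each circRNA (vertical) and its host gene (horizontal), for the 734 circRNAs with a single measured host; dashed lines mark 4-fold. Of the 46 circRNAs called higher, 5 lie right of the vertical dashed line.

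The 3 circRNAs called lower had 0 reads in Huh-7D12. Of these, 2 are described. circFOXK2 exons 2 to 4, of a forkhead transcription factor gene, had 0 reads in Huh-7D12 and 7, 3 and 10 in the other lines. The shorter circFOXK2 exons 2 to 3 had 35, 25, 20 and 15 reads, so this host did give circRNA in Huh-7D12. circZNF91 with a span of 4296 bases had 8, 10, 0 and 3 reads, and belongs to a zinc finger family with similar members. For FOXK2 and ZNF91 the nearest line was at the floor of 3 reads, and no fold is given.

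Against each other line on its own, Huh-7D12 had more circRNAs 4-fold above than 4-fold below. It was higher than Hep3B for 100 (12.9%) and lower for 46 (5.92%). Against HepG2 the numbers were 163 (21.0%) and 44 (5.66%), and against SK-Hep-1 171 (22.0%) and 119 (15.3%). These comparisons share the Huh-7D12 library and a deposited scale on which its circRNA total is the largest relative to gene reads.

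When each circRNA was taken as a share of its line's circRNA total, which removes that difference in total, 30 of the 777 were higher in Huh-7D12 (3.86%) and 5 lower (0.644%). All 30 were among the 50 called by value, which had to be so because the share lowers Huh-7D12 against each other line. The largest differences in share above the nearest other line were those of the RBM4 loop, at 0.496% (0.384 to 0.629) in Huh-7D12 and 0.209% (0.138 to 0.304) in Hep3B, and of circALB exon 14, at 0.266% (0.187 to 0.369) against 0. Both stand on more than 30 reads. The 2 circRNAs that became lower by share were those of GSE1 and RNF13. circGSE1 exon 2 (chr16:85633914-85634132, plus strand) had 51, 27, 4 and 13 reads, which is 0.395%, 0.433%, 0.0296% and 0.168% of the totals. circRNF13 exons 3 to 9 (chr3:149846011-149921227, plus strand), of a ubiquitin ligase gene, had 19, 11, 3 and 32 reads and shares of 0.147%, 0.176%, 0.0222% and 0.413%. By value these stood 4.04-fold (1.25 to 17) and 4.72-fold (1.25 to 26.4) below the nearest line, and the pseudocount kept both from the 4-fold call.

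The circular reads of a host were then set against its gene reads in the 418 hosts with 20 or more circRNA reads over the 4 lines and 20 or more gene reads in each line. The median host had 8.83 circular reads per 1000 gene reads in Huh-7D12, 6.58 in Hep3B, 5.31 in SK-Hep-1 and 4.85 in HepG2. Summed over these hosts the value was 7.57 in Huh-7D12, and 6.40, 4.82 and 5.32 in the other lines. At 4-fold, Huh-7D12 stood above Hep3B in 23 hosts (5.5%) and below it in 11 (2.63%), above HepG2 in 72 (17.2%) and below it in 11 (2.63%), and above SK-Hep-1 in 62 (14.8%) and below it in 16 (3.83%). Huh-7D12 had the highest ratio in 206 of the 418, Hep3B in 86, SK-Hep-1 in 80 and HepG2 in 46. The ratio was above that of Hep3B in 272 hosts, of SK-Hep-1 in 288 and of HepG2 in 310, with median log2 differences of 0.37, 0.60 and 0.81. A ratio above that of another line was thus counted in many hosts. These counts take any difference, without intervals. The minimum of 20 circRNA reads was summed over the 4 lines, and Huh-7D12 had the most circRNA reads, so entry was not even between the lines.

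**Figure D5:**
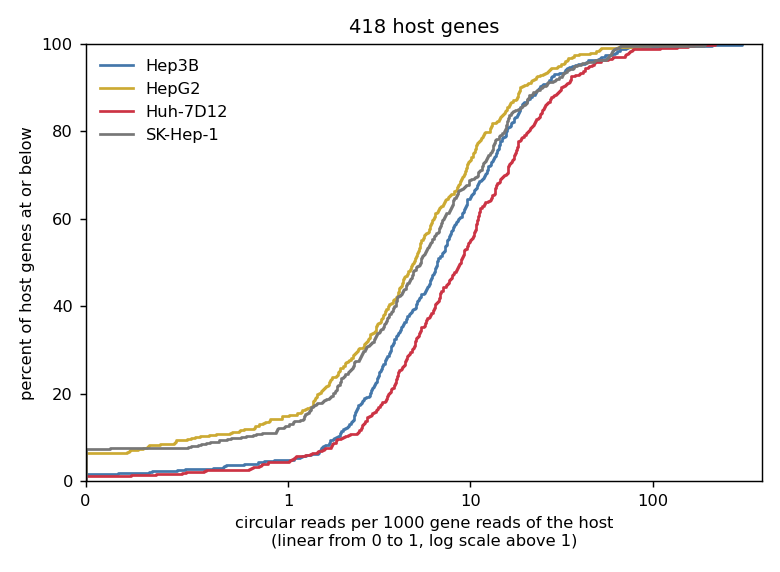
Cumulative percent of the 418 host genes by their circular reads per 1000 gene reads in each line (linear below 1, log scale above). The curve of Huh-7D12 lies to the right of the others over most of its range, with a median of 8.83 against 4.85 to 6.58.

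At 4-fold from every other line, 6 hosts had a higher ratio in Huh-7D12 (1.44%) and 5 a lower ratio (1.2%). These calls depend on the rule: with a minimum of 50 reads 0 were higher and 1 lower, and with 2 reads added to each host 1 was higher and 2 lower. Hep3B had 0 (0.0%) higher and 3 (0.718%) lower, HepG2 0 and 25 (5.98%), and SK-Hep-1 5 (1.2%) and 19 (4.55%). SUMF1 had 70.7 (45.5 to 105) circular reads per 1000 gene reads in Huh-7D12, 4.0 in Hep3B, 8.81 in HepG2 and 0 in SK-Hep-1, and was 8.02-fold (2.01 to 69.7) above HepG2. RELL1 had 74.2 (46.3 to 113) in Huh-7D12 and 10 to 15.9 in the other lines. CUL1, the scaffold of SCF ubiquitin ligases, had 10.7 (6.32 to 16.9) against 0 to 1.85, and the proteasome subunit gene PSMB1 had 3.90 (2.27 to 6.26) against 0 to 0.645. SCAP, which escorts the sterol-regulated transcription factors, had 11.1 (6.85 to 17) against 1.68 to 2.34, and VAPA, a membrane tether of the endoplasmic reticulum, had 9.91 (5.53 to 16.4) against 0.611 to 1.69. These 6 rest on 15 to 26 circular reads in Huh-7D12.

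Among the 5 lower hosts GSE1 had the most reads. Its ratio was 3.94 (1.07 to 10.1) in Huh-7D12, beside 33.2 (24.6 to 43.9) in Hep3B, 22.3 (14.6 to 32.6) in HepG2 and 55.8 (29.3 to 97.3) in SK-Hep-1, with gene values of 1368, 1690.3, 1101 and 314. The GSE1 gene was therefore well read in Huh-7D12, and the ratio was 5.66-fold (1.97 to 22.3) lower than in HepG2. ZNF91, the p53 ubiquitin ligase gene MDM2, the mitochondrial deacylase gene SIRT5 and the centrosomal gene SDCCAG8 had no circular read in Huh-7D12. Against a floor of 3 reads, ZNF91 was at least 2.43-fold lower than in Hep3B, and for the other hosts the floor did not reach the nearest line.

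Several much studied circRNA hosts did not set Huh-7D12 apart at 4-fold from every other line. The summed ratio of NFATC3 was 220.0 per 1000 gene reads in Huh-7D12 and 210.4, 180.0 and 192 in the other lines, and the 4 intervals overlapped. circCDYL exon 2, of a chromodomain protein gene, had 88.2, 65.5, 49.8 and 57.9, lowest in Huh-7D12, while its ratio to the gene was 119, 96.9, 168 and 56.7. circZKSCAN1 exons 2 to 3, of a zinc finger gene whose circRNA is much studied in liver cancer, had 57.9, 51.6, 24.9 and 18.8. circFGD6 exon 2, of a guanine nucleotide exchange factor gene, had 56.1, 15.3, 27.1 and 119.8, and circMAN1A2 exons 2 to 5, of a mannosidase gene, had 16.9, 18.1, 44.4 and 56.5. CAMSAP1 and HIPK3, like NFATC3 and CDYL, were highest in ratio in Huh-7D12, at 109 (89.2 to 133) and 25.5 (19.0 to 33.5) per 1000. Their summed circular reads were 40, 30, 114 and 25 for CAMSAP1 and 50, 11, 53 and 33 for HIPK3. The HIPK3 reads of Hep3B were thus close to those of Huh-7D12.

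The hosts with the most circRNAs detected in Huh-7D12 were taken next, a choice that goes through that line. Their numbers of circRNAs were not brought to equal depth, so a surplus in Huh-7D12 is not read as a result. SMARCC1, a subunit gene of the SWI/SNF chromatin remodelling complex, had 20 circRNAs with a read in Huh-7D12, 9 in Hep3B and 6 each in HepG2 and SK-Hep-1. They held 51 reads in Huh-7D12 and 18, 8 and 10 in the other lines, none reached the value of 6 in Huh-7D12, and the ratio was 5.67 (4.22 to 7.46) per 1000 against 2.44 to 3.06. FNDC3B and UBAP2 had 14 circRNAs each in Huh-7D12, and MPP6 and EIF4G3 had 12 each. Hep3B had more for FNDC3B, with 16, and for UBAP2, with 20, and HepG2 had 16 for UBAP2. Of the 557 hosts of the circRNAs that entered, 119 gave 2 or more of them, and no host had 2 or more called higher.

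Hosts with 2 or more circRNAs and a leading one of 6 or more in Huh-7D12, a choice that goes through that line, numbered 272. In 65 of them the leading circRNA of Huh-7D12 differed from the leading one of the other 3 lines summed. For RBM39, a splicing factor gene, the loop of exons 7 to 11 led in Huh-7D12 with 26 reads against 12 for exons 7 to 10. Elsewhere the shorter loop led, with 18 against 15 reads in Hep3B, 17 against 11 in HepG2 and 8 against 5 in SK-Hep-1. For EXOC6B the loop of exons 3 to 6 had 19 reads in Huh-7D12 and that of exons 3 to 5 had 2, while in HepG2 these were 3 and 7. ARHGAP5 had 18 reads for exons 2 to 3 and 14 for exon 2 in Huh-7D12, 24 and 37 in Hep3B, 37 and 48 in HepG2, and 1 and 7 in SK-Hep-1. These changes of the leading loop rest on small margins in most lines.

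The circRNAs higher in Huh-7D12 had features close to those of all that entered. Both ends matched the exon edges of a transcript for 42 of the 50 (84.0%) and for 696 of the 777 (89.6%). The median span was 11615 bases against 8429, the median spliced length 560 against 515 bases, and the median number of exons 4 against 3. A start at exon 2 was found for 50% and 50.7%, a loop of a single exon for 19.0% (8 circRNAs) and 12.5%, and the median intron upstream was 20153 against 15464 bases. The median GC content of the spliced loops was 43.2% against 43.5%, and the last exon ended in AG for 64.3% against 57.8%. The 50 most abundant circRNAs of Huh-7D12 differed more from the rest. They had a median span of 4128.5 bases and 2 exons, started at exon 2 in 65.2% of matched cases and held the annotated start codon in 39.5% of coding ones, against 26% over all that entered. Among the chromosomes, 7 of the 50 lay on chromosome 1, 6 on chromosome 2 and 5 on chromosome 15, which held 83, 61 and 33 of the 777.

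The hosts were also grouped by function, and no group held more than 1 circRNA called higher. Over all 777, 50 (6.44%) were higher and Huh-7D12 was highest for 291, and the counts by group are to be read beside these. Of 60 circRNAs from 29 much studied hosts, 0 were higher and Huh-7D12 was highest for 15. These hosts gave 8.99% of its circRNA reads, against 10.5% in Hep3B, 15.6% in HepG2 and 11.2% in SK-Hep-1. Hepatocyte transcription factor genes had 3 members, and Huh-7D12 had the highest value in all 3, though beyond counting error for 1 of them: circPROX1 exons 2 to 4 had 16.9, 1.39, 17.3 and 0, circNR5A2 exons 3 to 7 had 1.78, 0, 9.75 and 0, and circNR1H4 exons 5 to 9 had 8.90, 4.18, 9.75 and 0. The ratio of Huh-7D12 to Hep3B was 1.02 (0.493 to 2.10) for circPROX1 exons 2 to 4, 5.47 (1.13 to 52.1) for circNR5A2 exons 3 to 7 and 1.09 (0.394 to 3.0) for circNR1H4 exons 5 to 9. Secreted hepatocyte proteins had 4 members, of which circALB exon 14 was higher. circAPOA1, of the gene of the main protein of high density lipoprotein, had 12.5, 23.7, 7.58 and 0, highest in HepG2. All such hosts gave 0.451% of the circRNA reads of Huh-7D12, 0.310% in Hep3B, 0.577% in HepG2 and none in SK-Hep-1.

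Chromatin genes had 18 members, of which 0 were higher and 9 were highest in Huh-7D12. The summed circRNAs of RERE, a transcriptional corepressor gene, had 98.6 in Huh-7D12 and 40.1, 43.2 and 9.42 in the other lines, and those of ASXL1, a Polycomb partner, had 29.4, 16.7, 79.1 and 26.9. Protein kinase genes had 27 members, with 0 higher and 11 highest in Huh-7D12, and genes of nuclear transport and RNA processing had 28, with 0 and 9. Genes of Wnt, TGF-beta and Hippo signalling had 18, with 0 and 8, among them circRNAs of the Wnt receptor gene RYK at 36.5, 29.3, 101 and 39.0 in sum. Genes of ubiquitin ligases (18 members), cytoskeleton and adhesion (20), membrane traffic (24) and cell cycle and DNA repair (7) had 1 higher each, with 4, 7, 8 and 3 highest in Huh-7D12. The median log2 distance to the highest other line ran from -1.59 to 0.12 over these lists, beside -0.61 over the 777.

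Of 30 measured genes that act in circRNA formation or turnover, none stood 4-fold above or below all other lines in Huh-7D12 at the gene level. QKI, which promotes circularisation of many exons, had values of 1583 in Huh-7D12 and 2168, 2686 and 1416 in the other lines. ADAR, which edits paired intron repeats, had 6393, 3559, 5782 and 5034, and DHX9, the helicase that unwinds them, had 8169, 5333, 6938 and 5963. The labelled cell type was checked on marker genes: all 10 hepatocyte genes had reads in Huh-7D12, their summed value was 893640.0, and that of SK-Hep-1 was 1034. In Huh-7D12 the 4 cholangiocyte markers summed to 7532 (6759 to 10963 in the other lines), the 4 endothelial ones to 41.2 (1.35 to 39.1) with KDR at 0, and the 4 of leukocytes and Kupffer cells to 11.9 (3.56 to 8.37) with CD163 at 0. The 4 stellate and fibroblast markers summed to 1054 (99.6 to 316), of which COL1A2 was at 885 in Huh-7D12 and at most 6.23 elsewhere, while DCN was at 0. The part of these differences in the circRNA results was not tested.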

How the data were processed

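Total RNA of the 4 lines was sequenced after ribosomal depletion as stranded 100-bp paired ends, per the labels. STAR 2.6.1d and hg38 come from the submitters' processing notes. Not given in the sources used here are the circRNA caller, the counter, the annotation and how values were scaled. Both deposited tables hold normalized signal, not raw counts: divided by the smallest value of a library they are whole within 0.001 for 100% of values, with factors of 1.08 for Huh-7D12, 0.890 for Hep3B, 1.39 for HepG2 and 1.35 for SK-Hep-1 in both tables. A count model needs replicates and was not fitted.

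Deposited circRNA positions flank the loop: with 1 base moved inward at both ends, 10458 of 12473 lie on exon edges of GENCODE 29. Printed positions are the first and last base of the loop. A host is the circRNA's GENE ID where it has exactly 1 (11859 circRNAs). Gene distances use log2(value + 1), host ratios add 0.5 circular reads, intervals are exact (Clopper-Pearson), and the floor is 3 reads per library. Named circRNAs are the 15 with the highest value in Huh-7D12, the 15 farthest above and up to 8 farthest below, the 5 largest share differences each way and the leading circRNA of each much studied host; hosts, isoforms and lists are represented by their leading entries, and circSETBP1, circPMS1, circEXOC6B, circFOXK2 exons 2 to 3, QKI, ADAR and DHX9 were chosen after their values were seen. The members, rules and 12 gene lists were chosen with earlier results of these data known. Some named entries are not reported here. Python 3.11.15, numpy 2.4.6, pandas 2.3.3, scipy 1.17.1 and matplotlib 3.10.9 were used, and the calling rule was tested on simulated data. Alternatives changed the pseudocount, the entry level, the fold, the scaling, the lines and the host minimum.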

Additional observations from a re-analysis of the deposited data

How the results depend on the processing

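The number of circRNAs called depends on the rule, since most rest on few reads. Those higher in Huh-7D12, 50 as reported, were 10 with 4 times the pseudocount, 191 with an entry level of 3 or none, 18 with an entry level of 12, 30 as shares of the line total, 143 at 2-fold, 15 at 8-fold and 130 against the mean of the other lines, and 93 without Hep3B. The 50 were among those called under each looser rule, and every one called by share, at 8-fold, with an entry level of 12 or with 4 times the pseudocount was among the 50. These overlaps follow from the rules and give no support. A looser rule can only add calls and a stricter one only remove them, and the share lowers Huh-7D12 against each other line. Those lower, 3 as reported, were 23 with the pseudocount divided by 4, 1 with 4 times it, 5 as shares, 31 at 2-fold, 1 at 8-fold, 23 against the mean, 9 without Hep3B, 11 without HepG2 and 12 without SK-Hep-1. Of the 18 named circRNAs called, 11 stayed past 4-fold with 4 times the pseudocount. All 18 did so with the pseudocount divided by 4, as shares, against the mean and with each other line left out. They were not followed under other folds or entry levels, and some, such as circRLF exons 2 to 5 at 11.9, do not enter at 12. The circRNAs detected in Huh-7D12, 4089, were 3111 with 2 or more reads and 2965 at equal depth. The circRNA reads per 1000000 gene reads, 727, were 881 over nuclear genes and 2221 over host genes. Hosts with a higher ratio, 6 as reported, were 16 with a minimum of 10 reads, 0 with 50, 48 at 2-fold, 1 with 2 reads added, 19 without Hep3B and 12 without HepG2. Those lower, 5 as reported, were 16 with a minimum of 10, 1 with 50, 2 with the leading circRNA alone, 12 at 2-fold and 2 with 2 reads added. No called circRNA changed direction. Among the named circRNAs that were not called, the sign of the distance to the nearest line turned in 18 against the mean of the other lines and in 8 as shares; circHIPK3 exon 2 went from 0.30 to -0.17, circFNDC3B exons 5 to 6 from 0.15 to -0.19 and circABCD3 exons 2 to 10 from 0.08 to -0.66 as shares, and leaving out Hep3B, HepG2 or SK-Hep-1 turned 5, 6 and 4. Beyond fewer features or lines compared, the cause of these changes was not tested. No paired analysis was possible because each line has 1 library. Depth limits all values under about 10 reads.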
